A study of Mus musculus with 8 samples.

Results

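A set of 10 genes of the hepatic acute-phase response was followed in RNA of primary mouse hepatic stellate cells: Saa1, Saa2, Saa4, Orm1, Orm2, Hp, Hamp, Apcs, Itih4 and Serpina10. They were chosen by symbol, and each was measured by the probe set that names that gene alone, and where a gene had several such probe sets the brightest by its mean over the 8 arrays was taken. Of the 10 genes, 9 had such a probe set among the 22180 genes measured. Saa1 was represented only by a probe set that names both Saa1 and Saa2, so it entered no test. The constitutive hepatocyte genes Alb, which encodes albumin, and Apoa2, which encodes an apolipoprotein of high-density lipoprotein (HDL), were set beside them.

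The cells came from BALB/c mice, an inbred strain, and fell into 4 groups of 2 arrays. Cultured cells had been kept in serum-containing medium for 10 days and are labelled as activated in vitro. The cells labelled as activated in vivo were taken without seeding, after the mice had received the hepatotoxin carbon tetrachloride (CCl4) for a period of 2 or 4 weeks. Quiescent cells were taken at 0 hours, also without seeding. A protocol text common to every sample lists valproic acid (2.5 mM), although neither titles nor treatment labels mention it, and its use on the cultured cells remains uncertain. Nothing in the labels states that replicate arrays represent different mice or cultures, so the tests measure only the spread between these arrays, which may be technical.

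The acute-phase response is the change in plasma protein output by which the liver answers infection or injury. Cytokines of the interleukin-6 family act on hepatocytes through gp130 and STAT3, and interleukin-1 and tumour necrosis factor act through NF-kB and C/EBP factors, to raise transcription of serum amyloid A, orosomucoid, haptoglobin and related genes. Hepcidin, the product of Hamp, is raised by the same interleukin-6 signal and, apart from inflammation, by the BMP6 and SMAD pathway that reads body iron. These proteins are products of hepatocytes, whereas the label of every sample here is hepatic stellate cell, the vitamin A storing pericyte of the liver sinusoid.

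The sequences before the transcription start are shown for the motifs found in them and for how alike Saa1 and Saa2 are. RefSeq promoters of assembly GRCm38.p6 matched 7 of the 10 genes. The 250 bases before the start of 4 of them are printed here 5′ to 3′ on the gene's strand, with matches to the searched motifs in capitals. The Saa1 promoter lies on the minus strand at chr7:46742981-46743230, the Saa2 promoter on the plus strand at chr7:46751583-46751832, the Orm2 promoter on the plus strand at chr4:63362199-63362448, and the Hamp promoter on the minus strand at chr7:30944030-30944279.
Saa1: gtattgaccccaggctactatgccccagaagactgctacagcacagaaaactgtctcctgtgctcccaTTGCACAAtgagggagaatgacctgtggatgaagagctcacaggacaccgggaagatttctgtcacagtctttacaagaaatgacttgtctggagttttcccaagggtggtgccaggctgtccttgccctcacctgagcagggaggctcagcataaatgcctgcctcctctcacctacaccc
Saa2: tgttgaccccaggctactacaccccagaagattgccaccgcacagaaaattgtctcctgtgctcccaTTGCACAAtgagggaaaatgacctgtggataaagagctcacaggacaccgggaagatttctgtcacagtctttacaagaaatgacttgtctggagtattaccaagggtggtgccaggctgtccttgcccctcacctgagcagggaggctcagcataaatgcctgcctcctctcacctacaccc
Orm2: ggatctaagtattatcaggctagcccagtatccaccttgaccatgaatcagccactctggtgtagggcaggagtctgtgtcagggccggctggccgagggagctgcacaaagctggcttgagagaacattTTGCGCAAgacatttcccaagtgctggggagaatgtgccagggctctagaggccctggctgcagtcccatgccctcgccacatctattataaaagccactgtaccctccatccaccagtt
Hamp: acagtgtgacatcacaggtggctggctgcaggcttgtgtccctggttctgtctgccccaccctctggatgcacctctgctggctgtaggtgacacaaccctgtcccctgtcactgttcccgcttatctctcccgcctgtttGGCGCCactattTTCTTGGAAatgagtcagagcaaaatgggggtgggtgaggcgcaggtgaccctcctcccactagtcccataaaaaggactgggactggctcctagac
The capitals in Saa1, Saa2 and Orm2 mark TTGCNCAA, a C/EBP-type motif searched on both strands. It starts 182 bases before the start site in Saa1, 183 in Saa2 and 120 in Orm2. It was also present in Saa4, so 4 of the 7 promoters held it, against 2.61% of the 32851 promoters of this length in the table. The matches in Saa1 and Saa2 are not independent, because these promoters are 94.8% identical. In Hamp the first capitals are GGCGCC, a motif of BMP-responsive elements that 9.59% of all promoters held, and the second are a match to the STAT-type motif TTCNNNGAA. The STAT-type motif was also in Apcs and Itih4, 3 of the 7 in all, against 7.02% of all promoters. No promoter of the 7 held an NF-kB-type motif spelled as GGG, any bases at the next 2 positions and then TTTCC, which 1.41% of all promoters held. No 2 of these motifs overlapped in the printed sequences. A match describes letters in the window and does not show that a factor binds there.

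The Saa1 and Saa2 promoters were identical at 238 of 251 aligned positions, or 94.8%, and the Saa4 promoter shared 46.3% with Saa1 and 44.0% with Saa2. The shared probe set of Saa1 and Saa2 read 3.02 and 3.09 in cultured cells, 4.42 and 8.24 after 2 weeks of CCl4, 5.59 and 5.26 after 4 weeks, and 11.96 and 11.01 in quiescent cells. All levels are log2 values normalized by robust multi-array average (RMA), given for replicates 1 and 2 in that order. Saa1 and Saa2 are known as near-identical copies, so the Saa2 probe set may also read Saa1 RNA, and the values of Saa2 are uncertain to that extent.

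Before the comparisons, the arrays of a group have to be set against each other, because they differed for these genes. All 9 measured acute-phase genes were higher by over 1 log2 unit in quiescent replicate 1 than in quiescent replicate 2, by 1.21 for Saa2 to 3.58 for Hamp with a median of 2.28. Among all genes, 1.89% did so. The shift was also seen in 13 of 21 other acute-phase genes, with a median of 1.47, and in 6 of 13 constitutive hepatocyte genes, with a median of 0.83. The same held for 4 of 8 neutrophil markers, with a median of 1.09, and for 4 of 10 sinusoidal endothelial markers, with a median of 0.90. It was seen in 1 of 10 Kupffer cell markers and 0 of 10 stellate cell markers, whose medians were -0.24 and -0.19. After 2 weeks of CCl4, replicate 2 was the higher array, by over 1 log2 unit, for Saa2, Hp, Orm2 and Orm1, 4 of the 9 genes against 0.343% of all genes. The Saa2 gap of 3.37 was the largest of any gene between those arrays. The same array was higher by over 1 log2 unit for 4 of 8 neutrophil markers and for 3 of 21 other acute-phase genes. The part of these other cell types in the results was not tested.

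**Figure D1:**
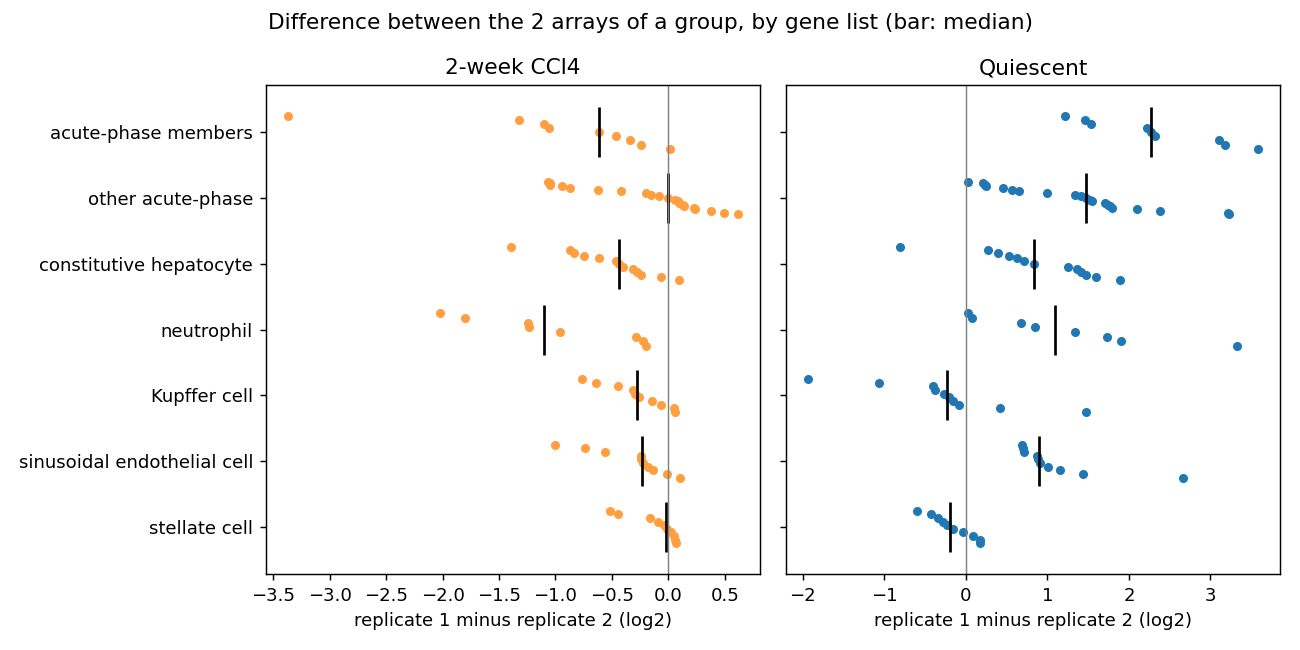
Difference between replicate 1 and replicate 2 (log2, horizontal axis) for each measured gene of 7 lists, after 2 weeks of CCl4 (left) and in quiescent cells (right), with a bar at each list's median. All 9 acute-phase members lie at 1.21 or more in quiescent cells, while the stellate cell markers have a median of -0.19.

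In cultured cells, all 9 acute-phase genes had fallen to between 2.54 and 5.40 log2 units, from the lowest to the highest array, against 6.46 to 12.21 in quiescent cells. As a guide to background, 1390 olfactory and vomeronasal receptor genes had a 95th percentile of 4.76. In the cultured arrays, 7 and 8 of the 9 genes lay under it, and in the quiescent arrays 0 of 9 did. Both arrays of a group lay under it for 7 of 9 genes in culture, 1 after 2 weeks of CCl4, which was Saa4, and 3 after 4 weeks, which were Saa2, Saa4 and Orm2. For these the fitted differences are against signals not above background, so their exact sizes and their order between such groups carry no information. The serum amyloid, orosomucoid, haptoglobin, hepcidin, pentraxin and protease inhibitor genes were all among those called lower. Fewer cells of a type and less RNA per cell cannot be told apart in such bulk RNA.

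Saa2, which encodes an HDL-bound acute-phase protein, read 2.71 and 2.54 in cultured cells, 4.90 and 8.27 after 2 weeks of CCl4, 3.94 and 3.65 after 4 weeks, and 11.99 and 10.78 in quiescent cells. Both quiescent arrays lay above all 6 others, and the 2-week arrays spanned more of the scale than any other pair. The change was -8.76 ± 0.87 in culture (log2 fold change ± SE against quiescent cells, 2 arrays per group; limma, adjusted p = 0.000133). It was -4.80 ± 0.87 after 2 weeks (limma, adjusted p = 0.0173) and -7.59 ± 0.87 after 4 weeks (limma, adjusted p = 0.00134). The cultured and 4-week arrays lay under the background guide, so the sizes of those changes are not measured folds. The quiescent mean lay 6.63 log2 units above the guide.

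Saa4, the constitutive serum amyloid A of HDL, read 3.49 and 3.45 in cultured cells, 4.01 and 4.48 after 2 weeks of CCl4, 3.54 and 3.54 after 4 weeks, and 9.57 and 6.46 in quiescent cells. All 6 arrays of the other groups lay under the background guide and both quiescent arrays over it. The fitted changes were -4.54 ± 0.76 in culture, -3.77 ± 0.76 after 2 weeks and -4.48 ± 0.76 after 4 weeks, with limma adjusted p of 0.00251, 0.0277 and 0.00831. Against the guide instead, the quiescent mean lay 3.26 log2 units higher. The 2-week call was lost in 6 of the 8 fits that leave out an array, with limma adjusted p up to 0.195.

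Orosomucoids, the α1-acid glycoproteins, are plasma carriers of lipophilic compounds. Their genes are close paralogs, so each probe set may also read RNA of the other. Orm1 read 5.21 and 5.40 in cultured cells, 6.64 and 7.70 after 2 weeks of CCl4, 6.27 and 6.26 after 4 weeks, and 11.20 and 9.74 in quiescent cells. Orm2 read 3.41 and 3.50 in cultured cells, 3.85 and 5.17 after 2 weeks, 4.39 and 3.84 after 4 weeks, and 10.34 and 7.16 in quiescent cells. For both genes the quiescent arrays stood apart from all others, and the CCl4 groups overlapped only for Orm2. Orm1 fell by 5.17 ± 0.45 in culture, 3.31 ± 0.45 after 2 weeks and 4.21 ± 0.45 after 4 weeks (limma, adjusted p = 6.41e-05, 0.00547 and 0.000927). Orm2 fell by 5.30 ± 0.84, 4.24 ± 0.84 and 4.64 ± 0.84 in the same order (limma, adjusted p = 0.0019, 0.026 and 0.0111). Its 2-week call was lost in 4 of the 8 fits that leave out an array, with limma adjusted p up to 0.206.

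Hp encodes haptoglobin, which binds free haemoglobin in plasma. It read 4.37 and 3.89 in cultured cells, 8.05 and 9.15 after 2 weeks of CCl4, 7.41 and 7.47 after 4 weeks, and 12.21 and 10.67 in quiescent cells. The 4 groups did not overlap. Hp fell by 7.31 ± 0.48 in culture (limma, adjusted p = 1.41e-05), by 2.84 ± 0.48 after 2 weeks (adjusted p = 0.0137) and by 4.00 ± 0.48 after 4 weeks (adjusted p = 0.00175).

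Hamp, which encodes hepcidin, the hormone that removes the iron exporter ferroportin from cell surfaces, was the 1 gene of the 9 not called under CCl4. It read 3.59 and 3.36 in cultured cells, 10.16 and 10.39 after 2 weeks of CCl4, 8.31 and 8.47 after 4 weeks, and 12.21 and 8.63 in quiescent cells. Cultured cells were apart from every other array, whereas both 2-week arrays lay between the quiescent arrays and the 4-week arrays lay just under the lower of them. The fall in culture was 6.94 ± 0.87 (limma, adjusted p = 0.00051). The change was -0.14 ± 0.87 after 2 weeks, with a 95% interval of -2.12 to 1.83 (adjusted p = 0.968), and -2.03 ± 0.87 after 4 weeks, with an interval of -4.00 to -0.05 (adjusted p = 0.23), so neither passed. The quiescent arrays decide this value. Without quiescent replicate 1, Hamp was 1.65 higher after 2 weeks of CCl4, and without quiescent replicate 2 it was lower, at -1.93. After 4 weeks these values were -0.24 and -3.82. The direction of the Hamp change after 2 weeks, and its size after 4 weeks, thus turn on which quiescent array is used. With a lone quiescent array the fit holds no spread between quiescent arrays, so no p-value is given for these values.

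Apcs encodes serum amyloid P, the main acute-phase pentraxin of mice. It read 4.48 and 4.61 in cultured cells, 6.27 and 6.26 after 2 weeks of CCl4, 5.61 and 4.89 after 4 weeks, and 10.75 and 8.44 in quiescent cells, again with the quiescent arrays highest and the groups apart. It fell by 5.06 ± 0.59 in culture, 3.33 ± 0.59 after 2 weeks and 4.35 ± 0.59 after 4 weeks (limma, adjusted p = 0.000349, 0.0163 and 0.00305).

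Among the protease inhibitor genes, Itih4, an inter-α-trypsin inhibitor heavy chain, read 4.95 and 4.66 in cultured cells, 7.51 and 7.85 after 2 weeks of CCl4, 7.89 and 7.53 after 4 weeks, and 12.08 and 9.87 in quiescent cells. Serpina10, the protein Z-dependent inhibitor of coagulation factor Xa, read 4.46 and 4.66 in cultured cells, 4.82 and 5.44 after 2 weeks, 4.86 and 5.10 after 4 weeks, and 9.58 and 7.31 in quiescent cells. The CCl4 groups overlapped for both genes, and both quiescent arrays lay above everything else. Itih4 fell by 6.17 ± 0.56, 3.29 ± 0.56 and 3.26 ± 0.56 in culture, after 2 weeks and after 4 weeks (limma, adjusted p = 8.1e-05, 0.0138 and 0.0088). Serpina10 fell by 3.89 ± 0.58, 3.31 ± 0.58 and 3.46 ± 0.58 in the same order (limma, adjusted p = 0.00135, 0.0153 and 0.00788).

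**Figure D2:**
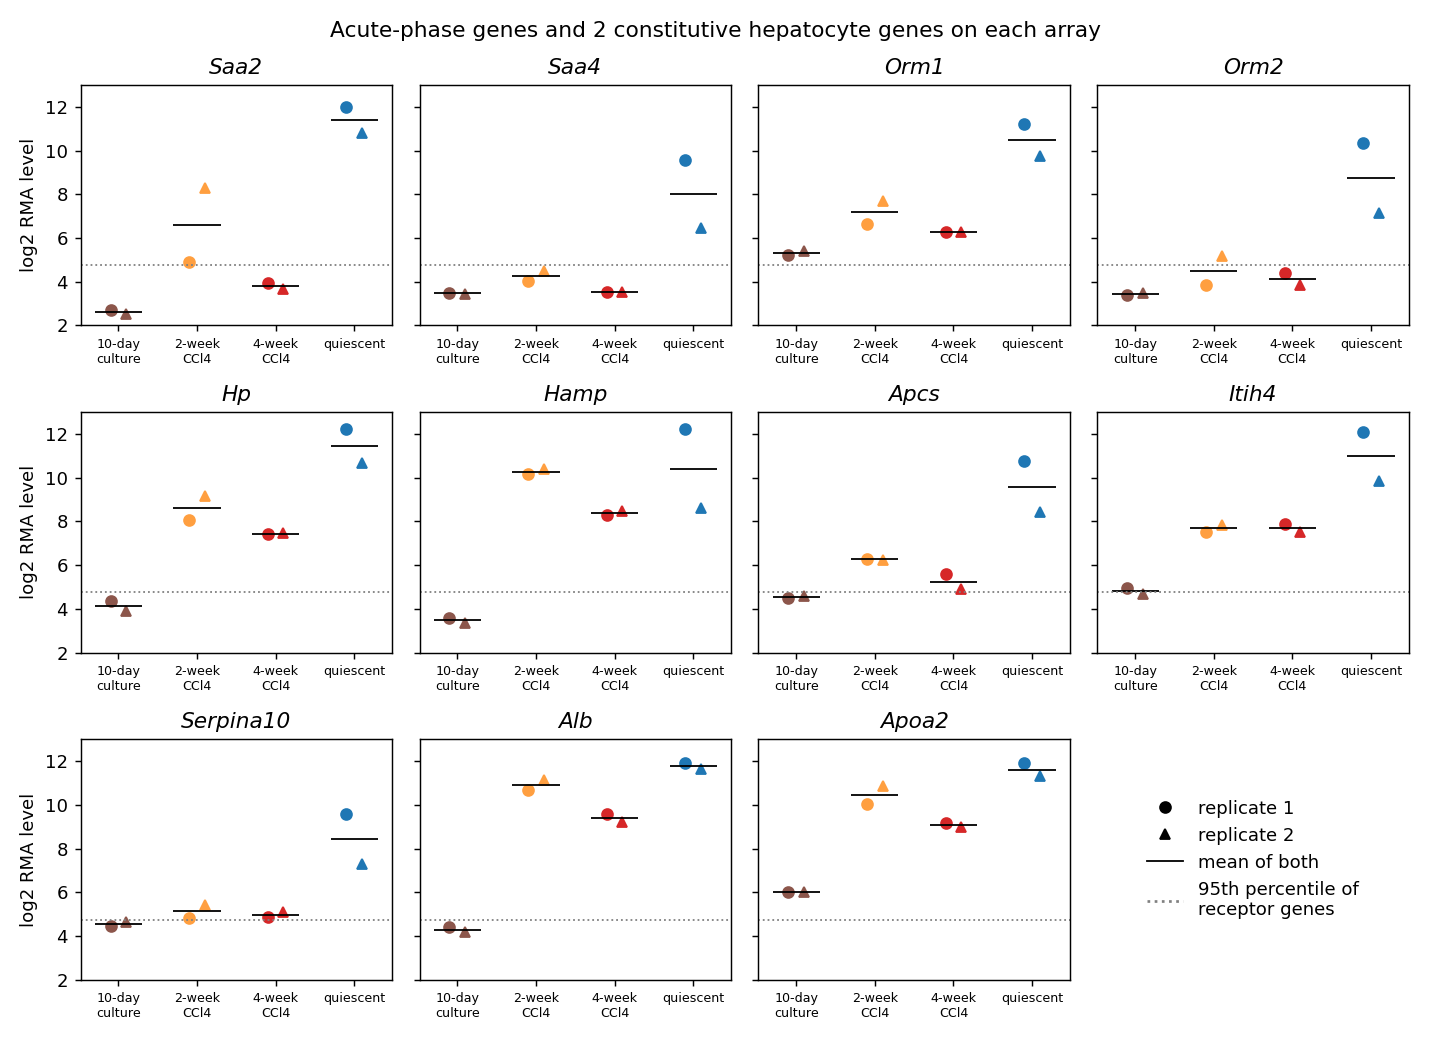
Log2 RMA level (vertical axis) of the 9 measured acute-phase genes and of Alb and Apoa2 on each of the 8 arrays, by group, with the mean of both arrays as a bar and the 95th percentile of receptor genes (4.76) as a dotted line. Alb and Apoa2 stay at 9.01 or more in both CCl4 groups, while Saa4 lies under the dotted line in all of them.

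Counted together, 9 of 9 acute-phase genes were called lower in culture, where 10.3% of all genes were, at an adjusted p under 0.05 over all genes. After 2 weeks of CCl4, 8 of 9 were called lower, against 2.43% of all genes, and after 4 weeks 8 of 9, against 4.67%. These 3 comparisons share the quiescent arrays. The median change of the 9 genes was -5.30 in culture, -3.31 after 2 weeks and -4.21 after 4 weeks, where the medians over all genes were 0.01, 0.00 and -0.00. Arrays of the group did not overlap with quiescent arrays, and lay below them, for 9 of 9 genes in culture against 27% of all genes. For 2-week CCl4 this held for 8 of 9 against 21.6%, and for 4-week CCl4 for 9 of 9 against 24.7%.

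The CCl4 counts changed with single arrays. In these fits the lone array left in a group is assumed to vary like the others. Without replicate 1 of the 2-week group only Saa2 was called at 2 weeks, and without replicate 2 there were 3, namely Saa2, Hp and Orm1. Without either 4-week array 4 were called at 4 weeks, which were Saa2, Hp, Orm1 and Apcs. The values themselves stayed between -2.07 and -6.48 at 2 weeks for the 8 genes called, over all 8 fits that leave out an array. Without quiescent replicate 1, Saa2 did not pass at 2 weeks (limma, adjusted p = 0.069). In culture, 9 of 9 were called whichever array was left out.

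**Figure D3:**
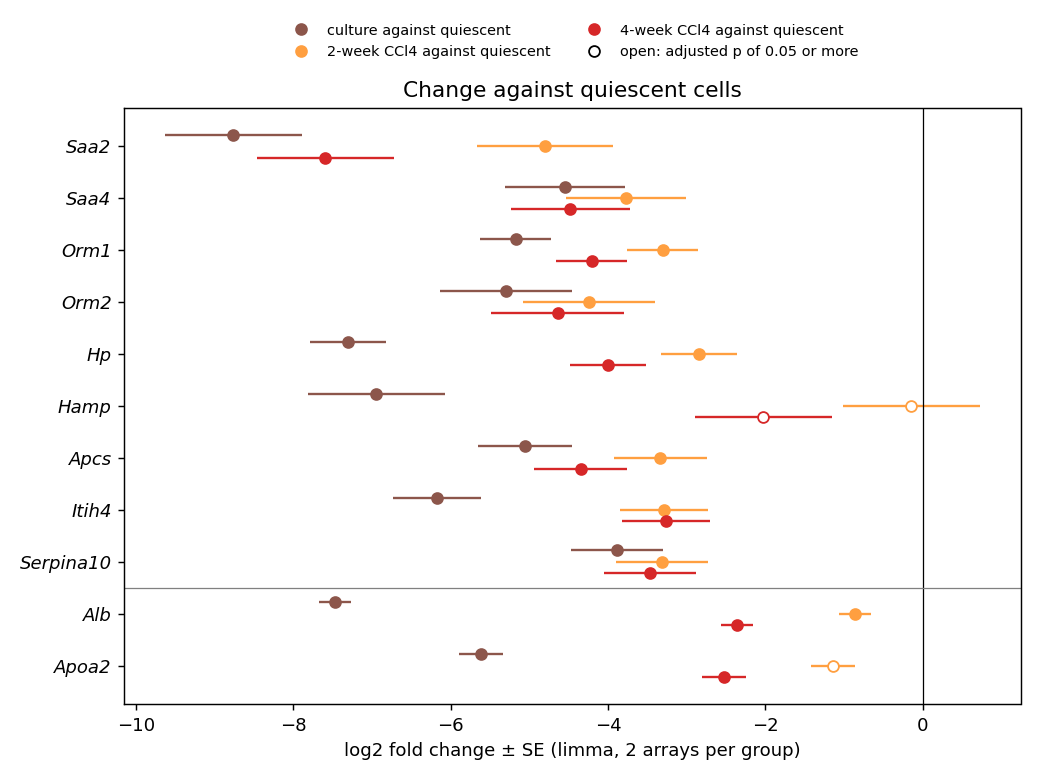
Change against quiescent cells (log2 fold change ± SE, horizontal axis) for each acute-phase gene and for Alb and Apoa2 below the line, in culture, after 2 weeks and after 4 weeks of CCl4, with open symbols where the adjusted p was 0.05 or more. Hamp is the acute-phase gene with open symbols at both CCl4 times.

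Between the CCl4 times no acute-phase gene was called. The 4-week mean lay below the 2-week mean for 8 of 9 genes, with a median change of -0.90, and Itih4 differed by 0.03 ± 0.56. Saa4 lay under the background guide at both times, so its order carries no information. All 13 measured constitutive hepatocyte genes were lower too, by a median of -1.37, and 8 of them had an unadjusted limma p under 0.05. The further fall was thus not particular to the acute-phase genes. The median over all genes was -0.01, and 1810 of the 22180 genes had an unadjusted limma p under 0.05, in either direction. At an unadjusted p under 0.05, Saa2 and Hp were lower at 4 weeks, by -2.79 ± 0.87 and -1.16 ± 0.48, with limma adjusted p of 0.392 and 0.578. The 4-week arrays of Saa2 lay under the background guide, so the size of its change is not measured. The shared probe set of Saa1 and Saa2 overlapped between these groups. It read 4.42 and 8.24 after 2 weeks, and 5.59 and 5.26 after 4 weeks. Only 0.0857% of all genes were called in this comparison. Hamp was -1.88 ± 0.87 (limma, adjusted p = 0.647), and its 2 groups did not overlap. Without either quiescent array it passed, at an adjusted p of 0.0155, and it passed in a fit of the CCl4 arrays alone at 0.019.

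Cultured cells were lower than the mean of both CCl4 groups for 9 of 9 genes, with no overlap between the arrays, where 18.2% of all genes lay so. Saa4, however, lay under the background guide on every one of these arrays. Saa2 and Orm2 lay under it in culture and after 4 weeks. The order of these genes between such groups carries no information. Of the 9 genes, 5 were called, against 8.72% of all genes. These were Hamp at -5.86 ± 0.75, Hp at -3.89 ± 0.42, Itih4 at -2.89 ± 0.49, Saa2 at -2.57 ± 0.75 and Orm1 at -1.41 ± 0.39 (limma, adjusted p = 0.000667, 0.000241, 0.00285, 0.0404 and 0.0314). Both culture arrays of Hamp, Hp and Saa2 lay under the guide, so the sizes of their differences are not measured folds. Saa4, Orm2, Serpina10 and Apcs did not pass, at -0.42 ± 0.66, -0.86 ± 0.73, -0.50 ± 0.50 and -1.22 ± 0.51. Leaving out either culture array or either 4-week array left 3 of them called, which were Hp, Hamp and Itih4.

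The constitutive hepatocyte genes were measured on the same arrays. Alb read 4.42 and 4.17 in cultured cells, 10.68 and 11.12 after 2 weeks of CCl4, 9.57 and 9.23 after 4 weeks, and 11.90 and 11.63 in quiescent cells. Its change was -7.47 ± 0.20 in culture, -0.86 ± 0.20 after 2 weeks and -2.36 ± 0.20 after 4 weeks (limma, adjusted p = 1.21e-07, 0.0486 and 0.000348). The 2-week call of Alb was lost in 7 of the 8 fits that leave out an array, with limma adjusted p up to 0.284. Apoa2 read 6.01 and 6.0 in cultured cells, 10.05 and 10.88 after 2 weeks, 9.17 and 9.01 after 4 weeks, and 11.92 and 11.30 in quiescent cells. Its changes were -5.61 ± 0.28, -1.14 ± 0.28 and -2.52 ± 0.28 (limma, adjusted p = 3.38e-06, 0.0558 and 0.00114). After 2 weeks the fitted changes of Alb and Apoa2 were thus -0.86 and -1.14, where the 8 acute-phase genes other than Hamp were 2.84 to 4.80 below quiescent cells. Over the fits that leave out an array, Apoa2 went as low as -1.56 and Hp as high as -2.07. Over the 13 measured constitutive hepatocyte genes the median change was -4.01 in culture, -0.94 after 2 weeks and -2.30 after 4 weeks. Within that list 5 of 13 were called lower after 2 weeks, namely Alb, F2 at -2.51 ± 0.43, Serpinc1 at -2.04 ± 0.42, Apoh at -1.93 ± 0.34 and Cps1 at -1.72 ± 0.36, and the last 4 of these lay nearer to the acute-phase genes than Alb and Apoa2 did. Alb and Apoa2 lay above the background guide on every array taken without seeding, although these cells are labelled as stellate cells.

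To set the acute-phase genes against Alb and Apoa2 directly, the mean of those genes on the same array was subtracted from every gene. After 2 weeks of CCl4, 8 of the 9 acute-phase genes lay lower relative to Alb and Apoa2 than in quiescent cells without overlap, where 0.762% of all genes did, at -1.84 ± 0.45 for Hp to -3.80 ± 1.0 for Saa2. These errors come from each gene's own variance in limma's lmFit, with 4 residual degrees of freedom and no moderation. Unadjusted p-values of these 8 ran from 0.00504 to 0.0431 and adjusted ones from 0.0822 to 0.085, so none was called, in a fit that called 0% of all genes. Hamp differed by 0.86 ± 1.13, with an interval of -2.27 to 3.99. The fit with limma's moderation called 9, namely 8 lower, where 0.541% of all genes were called lower, and Hamp higher, where 82.7% were called higher. The constitutive genes F2, Serpinc1 and Apoh were called lower there too, at -1.51, -1.04 and -0.92. That moderation, however, gave every gene the same SE of 0.37, so its p-values do not reflect the spread between the arrays of these genes.

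After 4 weeks the differences were smaller for 7 of the 8 genes. Saa4 lay under the background guide at both CCl4 times, and Saa2 and Orm2 lay under it after 4 weeks. The sizes of their differences at those times are thus not measured. Alb and Apoa2 themselves read lower after 4 weeks than after 2. By each gene's own variance, 3 of 9 acute-phase genes were called lower than Alb and Apoa2, where 0.0812% of all genes were. These were Saa2 at -5.15 ± 1.0, Orm1 at -1.77 ± 0.41 and Hp at -1.56 ± 0.45 (limma without moderation, adjusted p = 0.0079, 0.0136 and 0.0269). Arrays lay below quiescent ones without overlap for these and for Orm2, Saa4 and Apcs, 6 of 9 against 0.185% of all genes, but Orm2, Saa4 and Apcs did not pass, at -2.20 ± 1.0, -2.04 ± 0.95 and -1.91 ± 0.72. By own variance 21755 of the 22180 genes were called higher, and lower calls were not confined to the acute-phase members. The constitutive genes had 1 of 13 called lower, Apoh at -0.99 ± 0.32, and 1 called higher. The other acute-phase genes had 4 of 21 called lower, among them Fga, Fgb and Fgg, and 13 called higher. Itih4 and Serpina10 overlapped with quiescent replicate 2, at -0.82 ± 0.64 and -1.02 ± 0.68, and Hamp differed by 0.41 ± 1.13. With moderation 8 of 9 were called, all lower and without Hamp, against 0.162% of all genes. Between the CCl4 times 0 of 9 differed from Alb and Apoa2 by their own variance, with 0 at an unadjusted p under 0.05, where 86.7% of all genes were called. Limma with moderation called 5, against 98.5%.

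**Figure D4:**
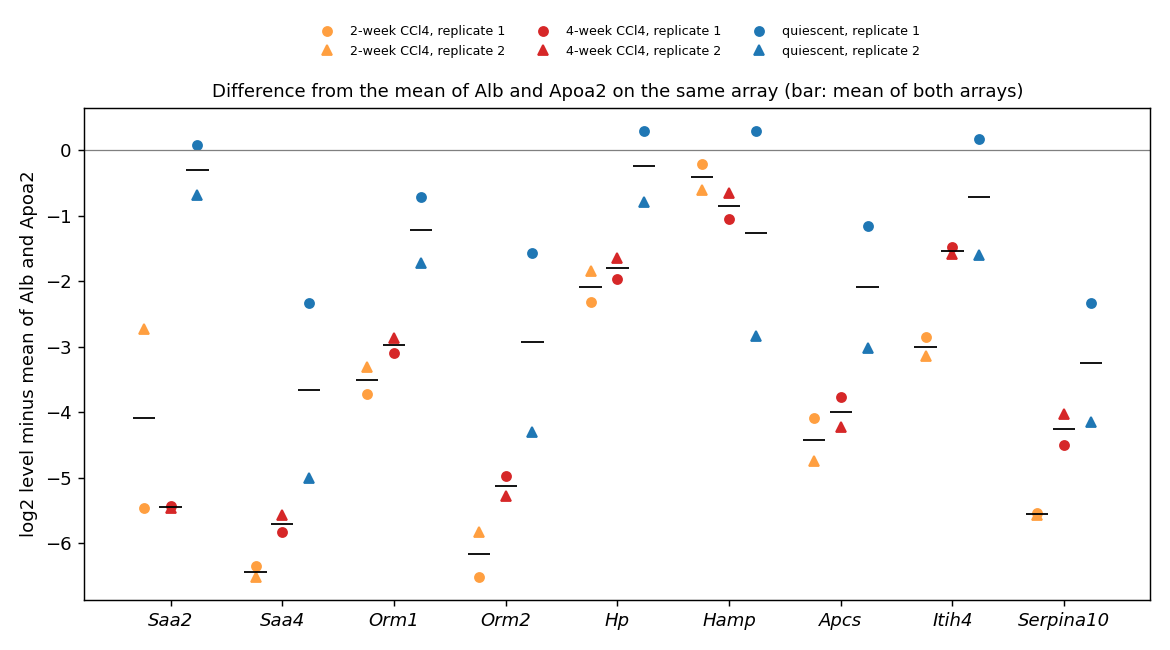
Level of each acute-phase gene minus the mean of Alb and Apoa2 on the same array (log2, vertical axis), after 2 weeks and 4 weeks of CCl4 and in quiescent cells, with the mean of both arrays as a bar. A value of 0 does not stand for equal abundance. All 2-week points lie below the quiescent ones except for Hamp, whose 2-week points lie between them.

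In culture the same subtraction gave both signs. By their own variance Serpina10 and Orm1 were called higher relative to Alb and Apoa2, at 2.65 ± 0.68 and 1.37 ± 0.41, where 99.8% of all genes were called higher, so this count says nothing particular about them. Saa2 was at -2.22 ± 1.0 (limma without moderation, adjusted p = 0.0913). Against the CCl4 groups, 6 of 9 were called higher, where 99.7% of all genes were. With moderation 7 of 9 were called against quiescent cells in culture, 5 higher and 2 lower, where 99.9% of all genes were called, and 9 of 9 against CCl4, where 99.8% were. Most of these genes and Alb lay under the background guide in cultured cells, so the differences there are between signals near background, and with the median of the constitutive genes subtracted instead, Orm1 turned to -1.23.

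Other acute-phase genes, 21 of them measured, came from a list of further plasma and inflammation-induced genes. In culture 18 were called lower, after 2 weeks 9 and after 4 weeks 8, and none was called higher in any. Of all genes, 10.3%, 2.43% and 4.67% were called lower in the same order. The median changes were -4.89, -0.72 and -0.70. Fgg, the fibrinogen γ chain, read 4.29 and 4.19 in cultured cells, 7.78 and 8.84 after 2 weeks of CCl4, 6.62 and 5.87 after 4 weeks, and 12.05 and 10.63 in quiescent cells, so its groups were apart. It changed by -7.10 ± 0.48, -3.03 ± 0.48 and -5.10 ± 0.48 (limma, adjusted p = 1.5e-05, 0.00968 and 0.000524). Cfb, complement factor B, changed by -4.89 ± 0.23 in culture and -1.24 ± 0.23 after 2 weeks, both past the threshold, and by -0.70 ± 0.23 after 4 weeks (limma, adjusted p = 0.108).

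Steap4, a metalloreductase, and Cp, ceruloplasmin, changed by -7.37 ± 0.14 and -4.98 ± 0.31 in culture. At the CCl4 times neither passed, with Steap4 at -0.22 ± 0.14 and -0.27 ± 0.14, and Cp at -0.72 ± 0.31 and -0.53 ± 0.31. Saa3, the serum amyloid A that mouse macrophages and other non-hepatic cells also make, was chosen after its values were seen. It was at -5.54 in culture (limma, adjusted p = 0.00107), and at 0.11 and 0.90 after 2 and 4 weeks, which did not pass (adjusted p = 0.972 and 0.632).

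The genes most like the acute-phase genes over the 8 arrays were sought by the root mean square difference between a gene's profile, centred on its mean, and the median centred profile of the 9 genes. The 5 nearest that are not among them were Crp at 0.26 log2 units, Fgl1 at 0.30, Plg at 0.39, Cyp2c70 at 0.39 and Apon at 0.41. For comparison, Orm1 was at 0.25 and Apcs at 0.27, while Hp was at 1.10, Saa2 at 1.68 and Hamp at 1.99. After 2 weeks of CCl4, Plg changed by -2.48, Cyp2c70 by -2.62, Apon by -2.93, Crp by -3.19 and Fgl1 by -3.25. All 5 were called lower, so a fall of this size was not confined to the 9 genes. As they were picked by profile, these calls are no separate test. Crp, a pentraxin that is a weak acute-phase gene in mice, read 3.96 and 4.31 in cultured cells, 4.98 and 6.03 after 2 weeks of CCl4, 4.93 and 5.11 after 4 weeks, and 9.89 and 7.51 in quiescent cells. Its quiescent arrays lay above all others. Plg, which encodes plasminogen, read 3.99 and 3.86 in cultured cells, 5.39 and 6.54 after 2 weeks, 5.03 and 4.86 after 4 weeks, and 9.42 and 7.47 in quiescent cells.

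Of 22 measured genes for the inducing cytokines and their signalling, 1 was called higher and 12 lower in culture, 2 higher and 2 lower after 2 weeks, and 2 higher and 5 lower after 4 weeks. Among all 22180 genes, 2869 were called higher and 2276 lower in culture. The counts over all genes were 520 higher and 538 lower after 2 weeks, and 896 higher and 1036 lower after 4 weeks. Il6, the cytokine that induces most of the acute-phase genes in hepatocytes, read 8.45 and 8.35 in cultured cells, 8.47 and 8.63 after 2 weeks of CCl4, 7.45 and 8.46 after 4 weeks, and 5.33 and 4.55 in quiescent cells. Every array outside the quiescent group was higher than both quiescent arrays. Il6 rose by 3.46 ± 0.33, 3.61 ± 0.33 and 3.02 ± 0.33 (limma, adjusted p = 0.000112, 0.000728 and 0.00108). The 8 acute-phase genes other than Hamp were called lower in the same 3 groups.

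Socs3, the STAT3-induced inhibitor of gp130 signalling, was at 6.17 and 6.32 in cultured cells, 10.53 and 10.73 after 2 weeks, 10.23 and 10.39 after 4 weeks, and 11.48 and 11.12 in quiescent cells. It fell by 5.05 ± 0.17 in culture and 0.99 ± 0.17 after 4 weeks, and was at -0.67 ± 0.17 after 2 weeks (limma, adjusted p = 0.0588). Lifr, a receptor chain of the interleukin-6 family, fell in all 3 groups, by 3.99 ± 0.13, 0.95 ± 0.13 and 0.71 ± 0.13. Bmp2, a ligand that raises hepcidin, fell by 3.52 ± 0.25, 1.24 ± 0.25 and 1.62 ± 0.25. Nfkbia, the inhibitor of NF-kB, fell by 2.64 ± 0.18 in culture and was at 0.06 ± 0.18 and -0.44 ± 0.18 under CCl4, while Smad7 rose by 0.93 ± 0.17 after 4 weeks.

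Of 11 transcription factors of hepatocytes, 7 were called lower in culture, 1 after 2 weeks and 3 after 4 weeks, and none higher. The shares of all genes called lower were 10.3%, 2.43% and 4.67%. Cebpd, the C/EBP factor induced in the acute phase, fell by 3.39 ± 0.18 in culture, 0.80 ± 0.18 after 2 weeks and 1.21 ± 0.18 after 4 weeks (limma, adjusted p = 3.84e-06, 0.0374 and 0.00394). Cebpb fell by 1.28 ± 0.13 in culture and was at 0.10 ± 0.13 and 0.15 ± 0.13 under CCl4. Nr1h4, the bile acid receptor FXR, fell by 4.20 ± 0.24 in culture and 0.95 ± 0.24 after 4 weeks, and was at -0.57 ± 0.24 after 2 weeks. Creb3l3 fell by 0.79 ± 0.17 in culture and was at 0.29 ± 0.17 and -0.18 ± 0.17 under CCl4. These genes are also expressed outside hepatocytes, so their source among the cells is not known.

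Receptors and partners of the acute-phase proteins, 12 genes, had 9 called lower and 1 higher in culture, 2 lower after 2 weeks and 4 lower after 4 weeks. Of all genes, 10.3%, 2.43% and 4.67% were called lower in these groups, and 2869 of 22180 were called higher in culture. Slc40a1, the iron exporter ferroportin that hepcidin binds, read 4.88 and 5.03 in cultured cells, 8.23 and 8.56 after 2 weeks of CCl4, 7.83 and 7.74 after 4 weeks, and 8.07 and 8.95 in quiescent cells. It fell by 3.55 ± 0.26 in culture and was at -0.11 ± 0.26 and -0.72 ± 0.26 under CCl4 (limma, adjusted p = 0.904 and 0.149). Cd163, the macrophage receptor for haptoglobin bound to haemoglobin, fell by 1.92 ± 0.17, 1.15 ± 0.17 and 1.71 ± 0.17. Cd36 and Lrp1 fell in culture by 2.61 ± 0.31 and 1.15 ± 0.15, and Cd36 also after 4 weeks, by 1.44 ± 0.31. Hmox1, which breaks down haem, rose by 1.17 ± 0.21 in culture.

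The marker lists of other cells give the background to these changes. Among all 22180 genes, 10.3% were called lower in culture, 2.43% after 2 weeks and 4.67% after 4 weeks. In the same order, 2869, 520 and 896 genes were called higher. The median of 10 stellate cell markers was 7.75 to 8.46 in cultured cells, 11.11 to 11.43 over both CCl4 groups and 11.71 to 11.76 in quiescent cells. Of these markers 8 were called lower in culture, and 3 lower and 1 higher at each CCl4 time. All 5 of 5 activation markers, such as Acta2 and Col1a1, rose in all 3 groups. Kupffer cell markers had 9 of 10 lower in culture, 1 lower and 1 higher after 2 weeks, and 9 of 10 lower after 4 weeks. Sinusoidal endothelial markers had 10, 7 and 8 of 10 called lower. Neutrophil markers had 3 of 8 lower in culture and 0 called under CCl4. Their part in the acute-phase results was not tested.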

How the data were processed

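Per the labels' protocols, total RNA from a column kit was preamplified (Pico Ovation WTA V2), biotin-labelled and hybridised to 8 Affymetrix arrays. The authors deposited log2 values, which were made by RMA. The submitters' processing notes name Affymetrix Expression Console. Its version is not given in these sources. RMA fits all arrays together, so values are relative to the other arrays and would hide a shift common to most genes. Array medians ran from 4.63 to 4.72 log2 units over 41345 probe sets. Precision is limited by having 2 arrays per group.

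In the platform annotation, 23521 probe sets had 1 symbol, 1814 had several and 16010 were not named here, leaving 22180 genes. Gene IDs were checked against a RefSeq table (GRCm38.p6), in which 193 had no row and 0 symbols changed. Promoters are RefSeq's.

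Differences were tested two-sided in 1 limma 3.58.1 fit (R 4.3.3, lmFit and eBayes) of 8 arrays in 4 groups, with 4 residual and 4.75 prior degrees of freedom. Benjamini-Hochberg adjustment ran over all genes, and calls were made under 0.05. The script was tested on simulated data. The second fit subtracted the mean of Alb and Apoa2. Its prior degrees of freedom were infinite, so each gene's own variance was added as an alternative after seeing the data. Other alternatives were array centring, the mean of probe sets, a filter on dim genes, trend and robust moderation, fewer groups, a replicate block, other subtracted genes and leaving out each array.

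The members, lists, background guide and tests were chosen with earlier results of these data known. Named genes were the members, Alb and Apoa2, up to 4 genes per list with the smallest p against quiescent cells, genes called against their list, and the 5 nearest profiles. Only some of them are printed. Some listed genes are not reported here.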

Additional observations from a re-analysis of the deposited data

How the results depend on the processing

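Of the counts of acute-phase genes called, those in culture stayed at 9 with each array left out in turn. The same fits gave 1 to 9 after 2 weeks of CCl4, 4 to 9 after 4 weeks, 0 to 1 between the CCl4 times and 3 to 6 for culture against CCl4. In fits that leave out an array of a compared group, the lone array is assumed to vary like the others. Trend and robust moderation gave 5 after 2 weeks, and a fit of only the compared groups gave 1 after 2 weeks and 1 between the CCl4 times, with fewer arrays behind the spread. Relative to Alb and Apoa2, the counts with an array left out were 8 to 9 after 2 weeks, 6 to 9 after 4 weeks, 3 to 5 between the CCl4 times, 8 to 9 for culture against CCl4 and 5 to 8 for culture against quiescent. Each gene's own variance gave 0, 3, 0, 6 and 2 in the same order, against 9, 8, 5, 9 and 7 with moderation. With all arrays, moderation called 98.5% of all genes between the CCl4 times, 99.8% for culture against CCl4 and 99.9% for culture against quiescent. By own variance 86.7% were called between the CCl4 times, and 99.7% and 99.8% were called higher in the culture comparisons. The counts in these comparisons thus say nothing particular about the acute-phase genes.

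Signs turned for some single genes when an array was left out in turn. The values without 1 array ran from -1.93 to 1.65 for Hamp after 2 weeks. Relative to Alb and Apoa2, Hamp ran from -0.71 to 2.43 after 2 weeks, -1.15 to 1.98 after 4 weeks and -1.97 to 1.17 in culture. Relative Itih4 ran from -1.71 to 0.062 after 4 weeks and -0.52 to 1.25 in culture, and relative Orm2 in culture from -0.12 to 2.61. These extremes came from the fits without a quiescent array. Between the CCl4 times the ranges were -0.15 to 0.21 for Itih4, -1.06 to 0.26 for Orm2, -0.45 to 0.16 for Serpina10 and -2.72 to 0.014 for relative Saa2. With the median of the constitutive hepatocyte genes subtracted, the values against quiescent in culture were -1.12 for Apcs, -2.23 for Itih4, -1.23 for Orm1, -1.36 for Orm2 and -0.60 for Saa4, and those of culture against CCl4 were -1.60 for Hp, -0.60 for Itih4 and -0.27 for Saa2. The causes were not tested.

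Same-numbered arrays of different groups correlated at -0.042 to 0.0737 in their deviations from group means, so the numbers are not taken to pair the samples. With the replicate block, 9, 8, 8, 0 and 4 acute-phase genes were called for culture, 2 weeks, 4 weeks, 4 against 2 weeks and culture against CCl4. Relative to Alb and Apoa2 the block gave 6, 9, 8, 4 and 9 in that order. The shares of all genes called with the block are not given here. Without it, moderation called 99.9% of all genes for culture, 98.5% for 4 against 2 weeks and 99.8% for culture against CCl4.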
